A study of Mus musculus with 55 samples.

Results

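The 45 genes described here run the cell division cycle, and were measured in mouse epiblast stem cells (EpiSCs) and in dissected embryonic tailbuds. They were taken by symbol from a list of well known cell cycle and DNA replication genes, and no measured value enters the rule. The list was divided here into 10 genes of G1, 12 of S phase and 23 of G2 and mitosis, called mitotic genes below. This grouping is a choice, and the phase in which each transcript peaks was not measured. All 45 were present in both count tables, which list 15807 genes in the 8 EpiSC libraries and 14602 in the 9 tailbud libraries. After a filter on low counts, 44 could be tested in EpiSCs, where Ccne2 was left out. In tailbuds 40 could be tested, without Ccnd3, Ccne2, Cdk6, Cdc25b and Kif11.

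The 17 libraries belong to a series of 55 mouse samples on the Cdx and T transcription factors, which act in the axial progenitors that extend the trunk and tail. EpiSCs are pluripotent lines from the epiblast of pre-streak embryos, started on embryonic fibroblasts as feeders and later grown without them in Fgf-basic, Activin A and 2 µM of the Wnt secretion inhibitor IWP2. Libraries of WT and of Null EpiSCs were made in IWP2 (0h), 2 each, and 24 h after IWP2 was replaced by 3 µM Chiron (CHIR99021, a GSK3 inhibitor and so an activator of Wnt signalling) and 120 ng/mL Fgf8, again 2 each. No untreated 24h group was analysed here, so the agents, the loss of IWP2 and the time in culture cannot be told apart. The culture text of the Null lines names CdxKO embryos and also speaks of genotyping Wnt3 null cells, and the number of lines behind the libraries is not given. Tailbuds were cut from E8.0 embryos labelled WT, Cdx1-4 and Triple, without treatment and with 3 libraries each. The labels do not spell out the alleles behind Null, Cdx1-4 or Triple, the number of embryos per library, or whether the libraries of a group came from separate cultures or animals. The p-values therefore measure only the spread between these libraries, which may be technical.

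In the division cycle, D-type cyclins with Cdk4 and Cdk6, followed by Cyclin E with Cdk2, phosphorylate the retinoblastoma proteins in G1 and so release E2F factors. E2F factors drive the genes of DNA replication: Cdc6 and Cdt1 load the Mcm2 to Mcm7 helicase onto origins, Gmnn holds Cdt1 in check, Pcna is the polymerase clamp, and Rrm1 and Rrm2 form ribonucleotide reductase, which makes deoxynucleotides. Cyclin A and B with Cdk1 then carry cells into mitosis, where Aurora and Polo kinases, the spindle motor Kif11 and the checkpoint genes of the Bub family act before the anaphase-promoting complex, with Cdc20 and Ube2c, ends it. Epiblast cells and the axial progenitors are known to divide fast. In RNA from a whole culture or a whole tailbud, fewer cells in a phase and less RNA per cell cannot be told apart.

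Short promoter motifs are known for some phases, E2F sites for S genes and CHR with CCAAT for mitotic genes. The promoters of 7 members, 3 of S and 4 of mitosis, are printed here so that they can be compared by eye. RefSeq (GRCm38) gave a 300-base window, from 250 bases before to 50 after a start site, for 36 of the 45 genes, in 39 windows. Rrm2 and Mki67 had the smallest p of their phases over the 24h comparisons; Rrm1 is shown as the partner of Rrm2, and Mcm6, Ube2c, Ccnb2 and Cdk1 were added after their values were seen. Each line runs 5′ to 3′ on the gene's strand over 150 bases upstream of the annotated gene, in lower case, with capitals for any motif match on either strand.
Rrm2: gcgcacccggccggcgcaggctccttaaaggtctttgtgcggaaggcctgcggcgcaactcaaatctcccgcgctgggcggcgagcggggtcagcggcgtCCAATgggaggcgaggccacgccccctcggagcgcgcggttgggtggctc
Rrm1: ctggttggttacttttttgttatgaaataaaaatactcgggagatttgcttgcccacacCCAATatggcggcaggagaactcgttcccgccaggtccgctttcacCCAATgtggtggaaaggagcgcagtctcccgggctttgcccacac
Mcm6: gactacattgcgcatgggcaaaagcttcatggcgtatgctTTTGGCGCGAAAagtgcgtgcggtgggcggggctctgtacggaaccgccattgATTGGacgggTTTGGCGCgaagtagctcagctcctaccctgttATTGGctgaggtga
Mki67: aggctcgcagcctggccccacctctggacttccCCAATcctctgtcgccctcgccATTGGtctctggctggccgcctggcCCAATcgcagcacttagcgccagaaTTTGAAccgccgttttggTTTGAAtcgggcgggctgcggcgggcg
Ube2c: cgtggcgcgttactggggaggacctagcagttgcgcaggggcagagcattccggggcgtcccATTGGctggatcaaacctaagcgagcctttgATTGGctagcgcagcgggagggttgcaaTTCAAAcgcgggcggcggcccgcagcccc
Ccnb2: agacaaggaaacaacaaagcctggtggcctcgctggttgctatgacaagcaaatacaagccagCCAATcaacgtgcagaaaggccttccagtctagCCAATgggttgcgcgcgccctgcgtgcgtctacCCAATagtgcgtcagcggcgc
Cdk1: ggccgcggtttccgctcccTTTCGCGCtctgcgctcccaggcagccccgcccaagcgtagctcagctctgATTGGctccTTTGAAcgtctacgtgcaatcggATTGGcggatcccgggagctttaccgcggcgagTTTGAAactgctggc
The motifs searched were an E2F site (TTTCCCGC, TTTCGCGC, TTTGCCGC or TTTGGCGC), the cell cycle homology region CHR (TTTGAA or TTCGAA) and CCAAT, each also as its reverse complement. The stretches lie on chromosome 12 from 24708104 to 24708253 (Rrm2, plus strand), chromosome 7 from 102441545 to 102441694 (Rrm1, plus), chromosome 1 from 128359706 to 128359855 (Mcm6, minus) and chromosome 7 from 135716451 to 135716600 (Mki67, minus). The others lie on chromosome 2 from 164769779 to 164769928 (Ube2c, plus), chromosome 9 from 70421555 to 70421704 (Ccnb2, minus) and chromosome 10 from 69352913 to 69353062 (Cdk1, minus). Mcm6 shows 3 E2F matches, 2 of which overlap, beside CCAAT. Mki67, Ube2c and Cdk1 pair CHR with CCAAT, while the Ccnb2 stretch holds 3 CCAAT matches and its CHR matches lie outside the printed bases. Rrm1 and Rrm2 show CCAAT without an exact match to the E2F letters.

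Over all windows of the phase, an E2F match stood in 6 of 11 S windows (54.5%), 2 of 8 G1 windows and 1 of 20 mitotic windows, against 2.26% of all 32851 RefSeq windows. CHR stood in 16 of 20 mitotic windows (80%), 2 of 11 S windows and 0 of 8 G1 windows, against 19.2% of all windows. CCAAT stood in 18 of 20 mitotic, 9 of 11 S and 3 of 8 G1 windows, against 37.4% of all. All 16 mitotic windows with CHR also held CCAAT. A match describes letters in a window, and nothing was measured here about factors bound there.

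EpiSC libraries held 1114055 to 2914870 counts and tailbud libraries 389601 to 854852. A count of 3 in 1 library corresponds to 1.04 to 2.71 CPM, the count relative to the TMM-scaled total of its library, in EpiSCs and 3.66 to 8.17 CPM in tailbuds. Replicates differed by more than sampling noise in every group, with a chi-square of 1.52 to 2.74 per degree of freedom, so none was counted as a duplicate. The EpiSC marker list (10 genes) summed to 1169 to 1246 CPM in WT and 1826 to 2114 CPM in Null cells at 0h, and at 24h to 289 to 298 and 345 to 411 CPM. Of these genes Nanog had only 1 count in the 8 libraries together, while Pou5f1, which codes for Oct4, measured 54.2 to 355 CPM. Cdx genes check the labels poorly in EpiSCs. Cdx2 measured 2.85 to 3.21 CPM in WT and 0 to 5.42 CPM in Null libraries at 0h, and 13.4 to 30.3 against 10.4 to 12.7 CPM at 24h. Cdx4 had 2 counts in all 8 EpiSC libraries together, and Cdx1 at most 16 in any. A 3′ tag outside the deleted part of a gene checks nothing, and the deleted parts are not given. In tailbuds, Cdx4 had 16 to 33 counts in each WT library, at most 1 in Cdx1-4 and 0 in Triple libraries. Cdx1 ranged over 153 to 217 CPM in WT, 44.2 to 81.1 in Cdx1-4 and 54.4 to 112 in Triple, and Cdx2 over 174 to 269, 173 to 268 and 87.1 to 117 CPM.

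As a first view, the counts of each phase were summed and taken as a share of the library. These shares use plain library totals without TMM scaling. The TMM factors were 1.05 and 1.04 in WT at 0h and 0.992 and 0.994 at 24h. In Null cells they were 1.01 and 1 at 0h and 0.954 and 0.96 at 24h. Being higher at 0h, they make falls at 24h larger, and rises smaller, in these shares than in CPM. S genes took 0.45% ± 0.00508 (SD, n = 2) of WT EpiSC counts at 0h and 0.351% ± 0.00705 at 24h. In Null cells the S share was 0.408% ± 0.00635 and 0.334% ± 0.012. Both lines thus had a lower S share at 24h, with no overlap between the libraries of the 2 times. Rrm2 alone, an abundant gene, carried much of this. Without Rrm2 the S share was 0.306% to 0.314% at 0h and 0.271% to 0.272% at 24h in WT, and 0.29% and 0.25% to 0.264% in Null cells. Mitotic genes took 0.376% ± 0.0175 and 0.316% ± 0.0226 in WT, and 0.413% ± 0.00248 and 0.353% ± 0.016 in Null cells. The mitotic share was also lower at 24h in every library than in any 0h library of its line. The summed G1 share was higher at 24h in WT, at 0.232% ± 0.0102 against 0.194% ± 0.00183, and the 2 times met at 0.189% in Null cells (0.194% ± 0.00628 against 0.183% ± 0.00858). Ccnd2 alone accounted for the WT difference. Without Ccnd2 the G1 share was 0.164% to 0.171% at 0h and 0.163% to 0.165% at 24h in WT, and 0.155% to 0.169% and 0.15% to 0.159% in Null cells. Among tailbuds, the group means spanned only 0.394% to 0.426% for S, 0.398% to 0.412% for mitotic and 0.212% to 0.225% for G1 genes.

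**Figure D1:**
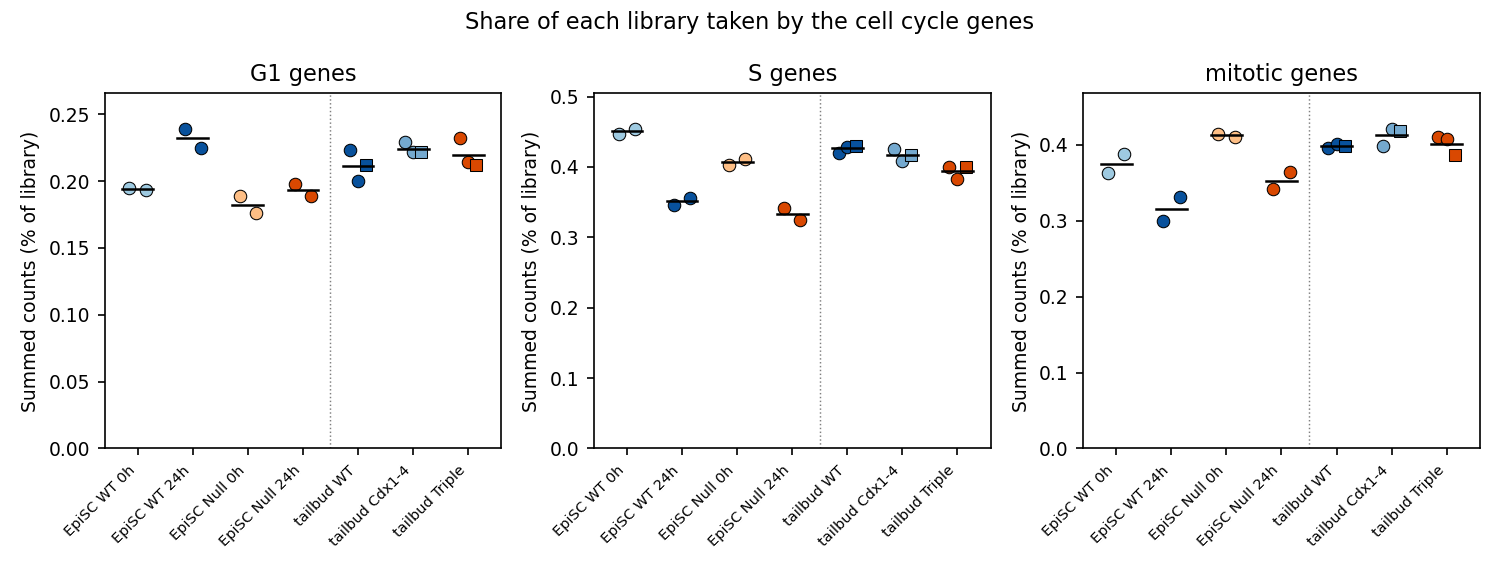
Summed counts of the G1, S and mitotic genes as percent of all counts of a library, 1 point per library, with a line at the group mean (EpiSC n = 2, tailbud n = 3; squares are tailbud libraries whose column name says green). S and mitotic points are lower at 24h than at 0h in both EpiSC lines, while the tailbud groups sit close together in all 3 panels.

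The 24h comparison asks what changed in cells treated with Chiron and Fgf8. In WT EpiSCs, the G1 cyclin Ccnd2 rose and 5 members fell: Cdk6, Rrm2, Kif11, Tpx2 and Aurka. In Null EpiSCs, Ccnd2 and Rrm1 rose and 6 members fell: Rrm2, Mki67, Mybl2, Cdc20, E2f1 and Ube2c. These are 6 of 44 in WT, where 16.8% of all tested genes were called (8.19% higher, 8.63% lower at 24h), and 8 of 44 in Null, where 18.6% were (9.18% higher, 9.44% lower). As shares of the members, 13.6% and 18.2%, these are below or near the background. Most members moved little. DESeq2 called only Ccnd2 and Rrm2 of them in WT and Ccnd2, Rrm2 and Mki67 in Null, and gave adjusted p = 0.174 to 0.353 and 0.13 to 0.19 for the others. The libraries of the 2 times did not overlap for 27 of 44 members in WT and 30 of 44 in Null, beside 53.9% and 57.8% of all tested genes. Cell state markers moved over the same time: the tailbud list (12 genes, Cdx4 at 0 in both lines at 24h) summed to 94.2 to 102 CPM in WT and 34.3 to 44.9 CPM in Null cells at 0h, and to 735 to 997 and 995 to 1076 CPM at 24h, while the EpiSC list was lower, as given above. Their part in the cell cycle results was not tested.

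**Figure D2:**
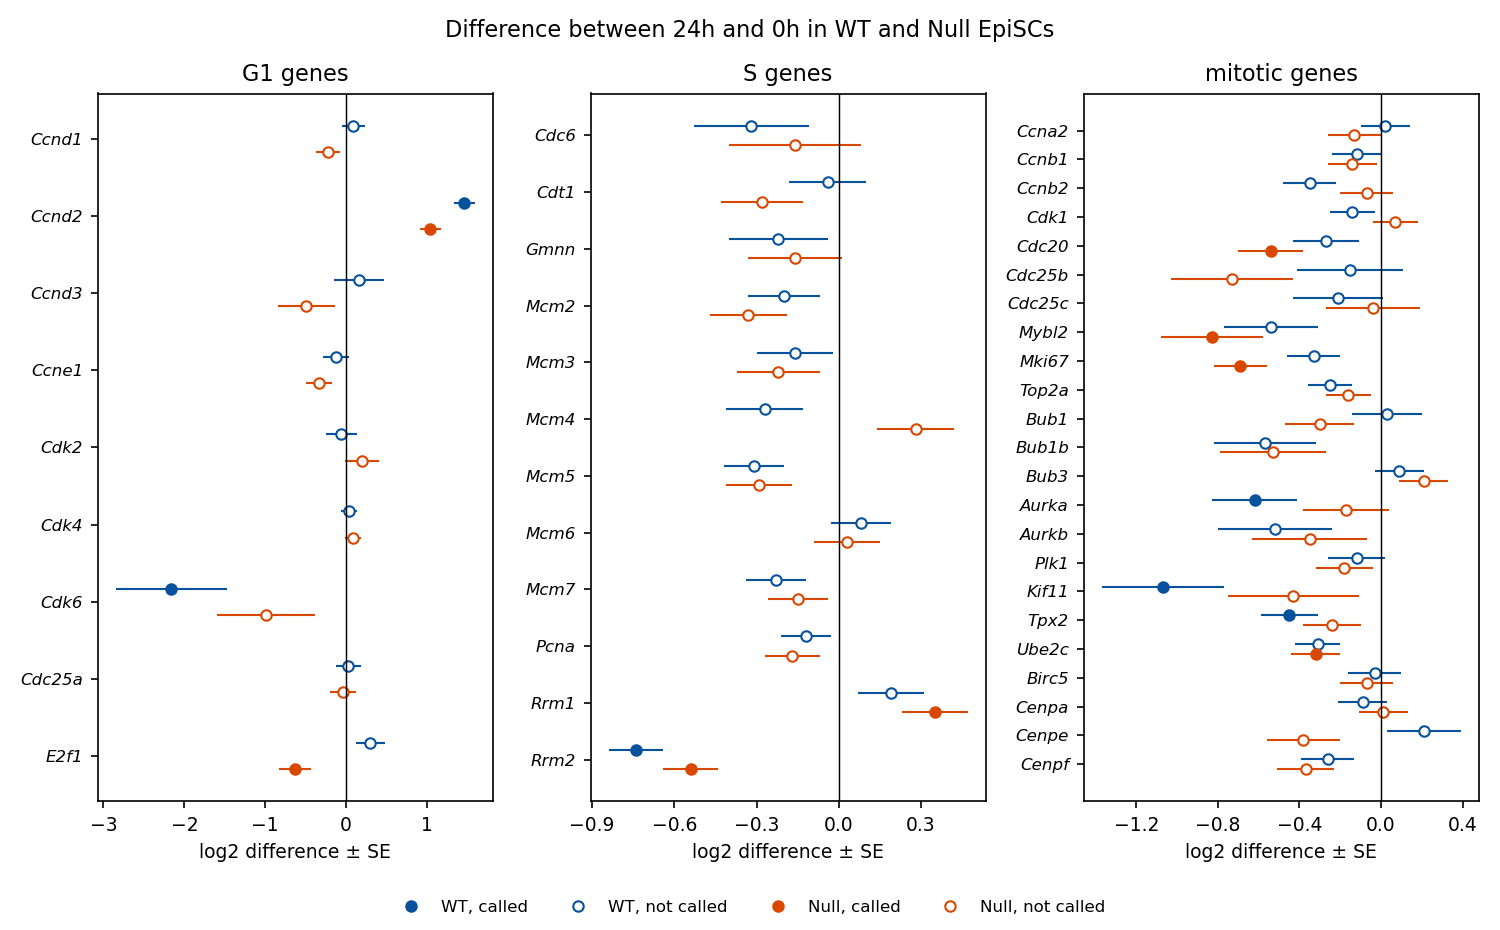
Log2 difference between 24h and 0h for each tested member, with its standard error, in WT (blue) and Null (orange) EpiSCs; filled points have an edgeR adjusted p below 0.05 (n = 2 libraries per group). Ccnd2 lies far to the right and Rrm2 to the left in both lines, and most mitotic genes lie left of 0 with open points.

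Among the G1 genes, Ccnd2, a D-type cyclin that activates Cdk4 and Cdk6, changed by far the most relative to its error. In WT cells it measured 295 and 207 CPM at 0h and 751 and 626 CPM at 24h, with means of 251 ± 62.4 and 689 ± 88.9 CPM (SD, n = 2). In Null cells it measured 193 and 212 CPM at 0h and 416 and 413 CPM at 24h, with means of 203 ± 13.4 and 415 ± 1.84 CPM. Every 24h library lay above every 0h library of either line. The rise was 2.74-fold in WT (log2 difference 1.46 ± 0.13 SE, edgeR adjusted p = 1.4e-10) and 2.05-fold in Null cells (1.04 ± 0.13, adjusted p = 5.44e-07). Both calls held in each of the 13 other settings tried. Ccnd2 lies on chromosome 6 from 127125162 to 127152188 (GRCm38) and overlaps the long noncoding gene 9330179D12Rik, whose reads cannot be told apart from it where strand was not used in counting.

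The other D-type cyclins did not pass the test. Ccnd1 measured 279 and 220 CPM in WT at 0h and 307 and 219 CPM at 24h, and Ccnd3 measured 8.69 to 16.6 CPM over all EpiSC libraries. Of all D-type cyclin counts, Ccnd2 made up 48.7% ± 2.13 in WT cells at 0h and 71.4% ± 1.77 at 24h. In Null cells it made up 45.2% ± 3.94 and 66.2% ± 2.81. The mix of D-type cyclin tags thus shifted to Ccnd2 in both lines, with no overlap between times. The share serves to compare groups, and the levels of the different cyclin genes were not compared with it.

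Cdk6, a partner of these cyclins, had 10 and 9 counts in WT at 0h and 4 and 1 at 24h, or 5.24 ± 0.161 and 1.02 ± 0.533 CPM. Its fall (−2.16 ± 0.69, adjusted p = 0.0273) rests on these few counts, and leaving out any of the 4 WT libraries gave adjusted p = 0.106 to 0.133. In Null cells Cdk6 measured 6.32 and 6.33 CPM at 0h and 1.98 and 4.68 CPM at 24h, from at most 10 counts, and did not pass (−0.99 ± 0.61, adjusted p = 0.286). E2f1, the factor that drives the S genes, measured 71.4 and 56 CPM in Null cells at 0h and 42.6 and 40.8 CPM at 24h. Its fall in Null cells (−0.63 ± 0.20, adjusted p = 0.0215) lost the call without Null 0h library 1 (adjusted p = 0.344), Null 24h library 1 (0.0951) or Null 24h library 2 (0.102). In WT cells E2f1 measured 51.4 and 38.7 CPM at 0h and 54 and 58 CPM at 24h, a difference of 0.30 ± 0.18 that did not pass (adjusted p = 0.299). The remaining tested G1 members, Ccnd1, Ccnd3, Ccne1, Cdk2, Cdk4 and Cdc25a, passed in neither line. Cyclin E2 was barely present, with 0 to 3 counts of Ccne2 in each EpiSC library. The median log2 difference over the 9 tested G1 members was 0.04 in WT and −0.22 in Null cells, beside −0.01 and 0.01 over all tested genes.

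**Figure D3:**
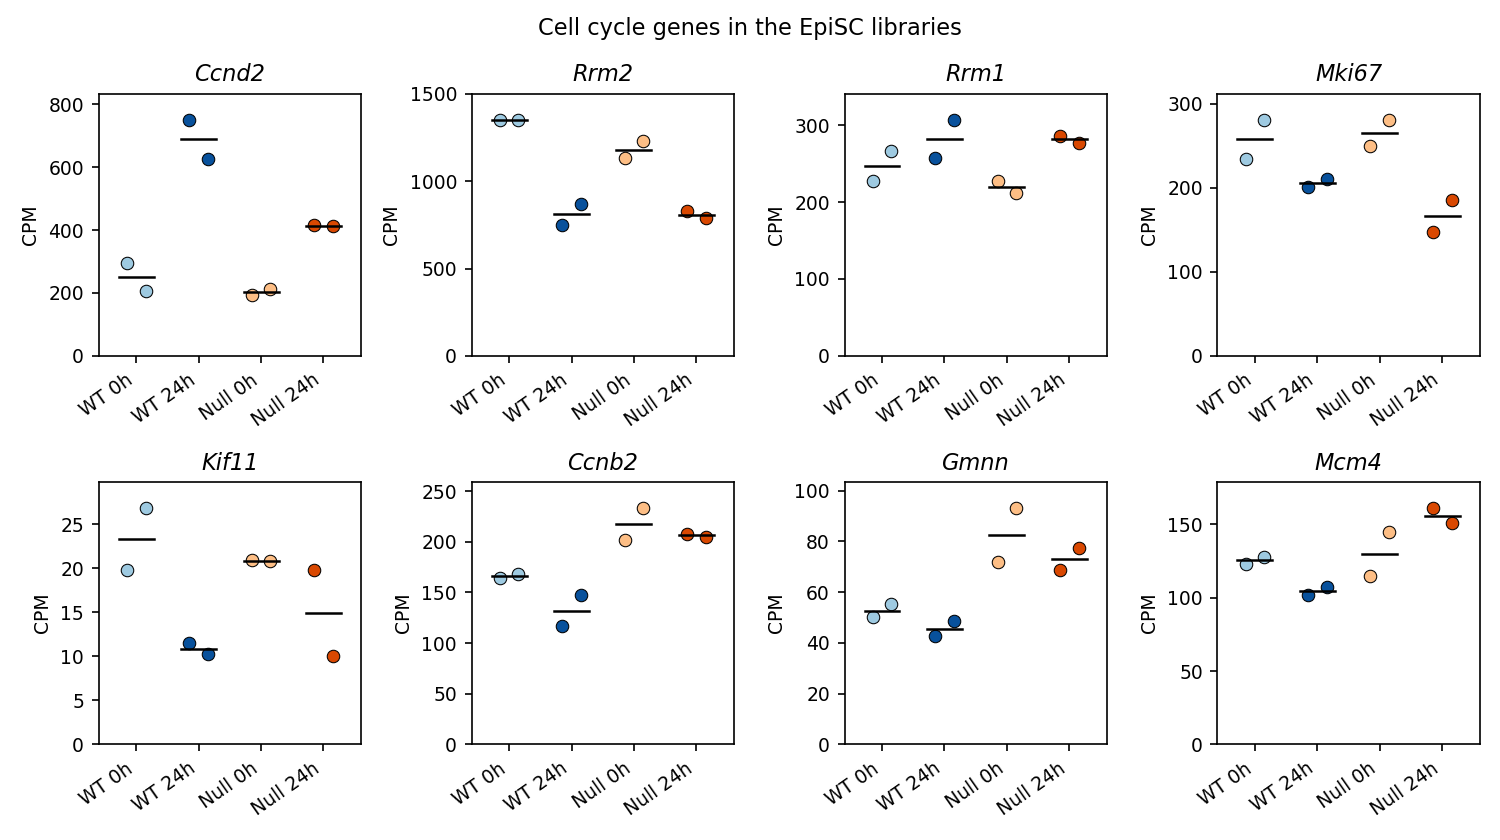
CPM of 8 members in the 8 EpiSC libraries, 1 point per library, with a line at each group mean (n = 2). Ccnd2 is higher and Rrm2 lower at 24h in both lines, while Gmnn and Ccnb2 are higher in Null than in WT cells at both times.

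Of the S genes, the ribonucleotide reductase subunit Rrm2 fell in both lines. It measured 1352 and 1350 CPM in WT at 0h and 751 and 868 CPM at 24h, and 1131 and 1232 CPM in Null at 0h and 831 and 787 CPM at 24h. The 24h libraries of both lines lay together below all 0h libraries. The log2 difference was −0.74 ± 0.10 in WT (adjusted p = 3.99e-07) and −0.54 ± 0.10 in Null cells (adjusted p = 7.38e-05), and both calls held in all 13 other settings. Rrm2 lies on chromosome 12 from 24708254 to 24714146 (GRCm38), just downstream of the stretch printed above. Rrm1, the large subunit of the same enzyme, measured 227 and 212 CPM in Null cells at 0h and 286 and 277 CPM at 24h. It rose there by 0.35 ± 0.12 (adjusted p = 0.0408), but no call was left when any 1 of the 4 Null libraries was left out (adjusted p = 0.106 to 0.201). In WT cells Rrm1 measured 227 and 266 CPM at 0h and 257 and 307 CPM at 24h, so the times overlapped. The 2 subunits thus gave log2 differences of opposite sign in each line, in WT without a call for Rrm1.

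The other 10 S members, which load, form or regulate the replication machinery, passed in neither line. Among them Mcm5, a subunit of the helicase, had the smallest p in both. It measured 239 and 252 CPM at 0h and 198 and 198 CPM at 24h in WT (−0.31 ± 0.11, adjusted p = 0.0557). In Null cells it measured 277 and 267 CPM at 0h and 221 and 224 CPM at 24h (−0.29 ± 0.12, adjusted p = 0.075). Pcna, the polymerase clamp, measured 1053 to 1225 CPM over the WT libraries and 891 to 1014 CPM over the Null libraries, without a call. Mcm6 differed by 0.08 in WT and 0.03 in Null cells. Log2 differences were below 0 for 10 of 12 S members in WT and 9 of 12 in Null cells, with medians of −0.21 and −0.16. Members without a call lay between −0.32 and 0.19 in WT and between −0.33 and 0.28 in Null cells.

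Among the mitotic genes, small differences below 0 were common and calls were few. Log2 differences were below 0 for 19 of 23 members in WT and 20 of 23 in Null cells, with medians of −0.25 and −0.24 beside −0.01 and 0.01 over all tested genes. In WT 3 of 23 fell by the test (13%), and in Null 4 of 23 (17.4%), and none rose. Over all tested genes 8.63% and 9.44% fell, and 16.8% and 18.6% were called either way. Members without a call, among them Top2a, Plk1, Aurkb, Ccna2 and Ccnb1, lay between −0.57 and 0.21 in WT and between −0.73 and 0.21 in Null cells. Kif11, the motor that separates spindle poles, had 37 and 47 counts in WT at 0h and 33 and 16 at 24h, or 19.8 and 26.8 against 11.5 and 10.2 CPM. Its fall was −1.07 ± 0.30 (adjusted p = 0.0101), which did not hold without WT 0h library 2 (adjusted p = 0.169) or WT 24h library 1 (0.0604). Kif11 lies on chromosome 19 and overlaps 2 annotated pseudogenes. Tpx2, which targets Aurora A to spindle microtubules, measured 156 and 155 CPM in WT at 0h and 103 and 129 CPM at 24h (−0.45 ± 0.14, adjusted p = 0.0208). Aurka, the kinase itself, measured 60.5 and 67.2 CPM at 0h and 29.6 and 58.7 CPM at 24h (−0.62 ± 0.21, adjusted p = 0.0394). WT 24h library 1 carried both: without it the log2 difference was −0.26 for Tpx2 (adjusted p = 0.361) and −0.10 for Aurka (0.827). Both calls were also lost without WT 0h library 1 (0.0976 and 0.0935) or WT 0h library 2 (0.0926 and 0.219), and that of Aurka without either Null 24h library (0.0511 and 0.0557).

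In Null cells Mki67, which codes for the proliferation antigen Ki-67, measured 250 and 281 CPM at 0h and 147 and 185 CPM at 24h. The means were 266 ± 21.8 and 166 ± 26.8 CPM, and the fall was −0.69 ± 0.13 (adjusted p = 0.000195), a call that held in all 13 other settings. Mki67 lies on chromosome 7 from 135689784 to 135716450 (GRCm38). In WT cells Mki67 measured 234 and 281 CPM at 0h and 201 and 210 CPM at 24h, without overlap but also without a call (−0.33 ± 0.13, adjusted p = 0.0698). Mybl2, the MYB factor that activates mitotic genes, measured 39.2 and 37 CPM in Null cells at 0h and 17.3 and 26.7 CPM at 24h (−0.83 ± 0.25, adjusted p = 0.0157). Cdc20, the activator of the anaphase-promoting complex, measured 159 and 119 CPM at 0h and 84.7 and 110 CPM at 24h (−0.54 ± 0.16, adjusted p = 0.0158). Both were lower in each 24h library than in each 0h library, but neither call held without Null 0h library 1 (adjusted p = 0.13 and 0.405) or Null 24h library 1 (0.301 and 0.285). Ube2c, the ubiquitin-conjugating enzyme of that complex, measured 296 and 323 CPM at 0h and 250 and 244 CPM at 24h (−0.32 ± 0.12, adjusted p = 0.0487). In WT it measured 251 and 243 against 207 and 189 CPM (−0.31 ± 0.11, adjusted p = 0.0595). The differences of Ube2c in the 2 lines were thus almost equal, on either side of the threshold, and the Null call was lost without any 1 of the 4 Null or the 2 WT 0h libraries (adjusted p = 0.0562 to 0.285).

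Whether the 24h response differed between Null and WT cells was tested as the Null response minus the WT response. No member passed by edgeR, where 0.567% of all tested genes did, and none by DESeq2. By edgeR 4 of 44 had an unadjusted p below 0.05, a threshold for which the share of all genes was not counted. E2f1 had the smallest p (−0.93 ± 0.27, adjusted p = 0.136), with the log2 differences of opposite sign in the 2 lines given above. Ccnd2 (−0.42 ± 0.18, adjusted p = 0.408), Mcm4 (0.55 ± 0.20, adjusted p = 0.267) and Cenpe, a kinetochore motor (−0.59 ± 0.26, adjusted p = 0.403), were the other 3. The interaction values for Rrm2 (0.20, adjusted p = 0.69) and Mki67 (−0.36 ± 0.18, adjusted p = 0.516) did not pass either, so no member was shown to respond differently in the 2 lines. Standard errors of these differences were 0.13 to 0.94.

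Null and WT cells were next compared at each time. At 0h, 4 members were higher in Null and none lower: Ccne1, Gmnn, Bub1 and Cenpe. At 24h, 5 were higher, namely Ccnb2, Mcm4, Cenpa, Gmnn and Cdk1, and Ccnd2 was lower. These are 4 and 6 of the 44 tested members, beside 6.67% of all tested genes at 0h (3.32% higher in Null, 3.35% lower) and 8.05% at 24h (3.7% higher, 4.35% lower). The libraries did not overlap for 23 and 26 of 44 members, beside 50.3% and 49.6% of all tested genes. The 2 comparisons share no libraries with each other, but each shares its libraries with the 24h comparisons above. EpiSC markers differed alongside, with 6 of 8 tested genes higher in Null cells at 0h (median 0.85), and 5 higher and 1 lower at 24h (median 1.09). Their sums are given above. Fibroblast markers (12 genes) summed to 235 to 285 CPM in WT and 122 to 134 CPM in Null cells at 0h, with Fap at 0 in both and Lum also at 0 in Null, and to 150 to 179 and 112 to 130 CPM at 24h, with Fap at 0 in WT. Of the 7 tested fibroblast markers, only the collagen gene Col3a1 was called at either time, lower in Null cells (−1.45 ± 0.19 and −1.06 ± 0.21, adjusted p = 3.55e-06 and 0.00114), and the median at 24h was −0.08. Their part in these results was not tested.

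**Figure D4:**
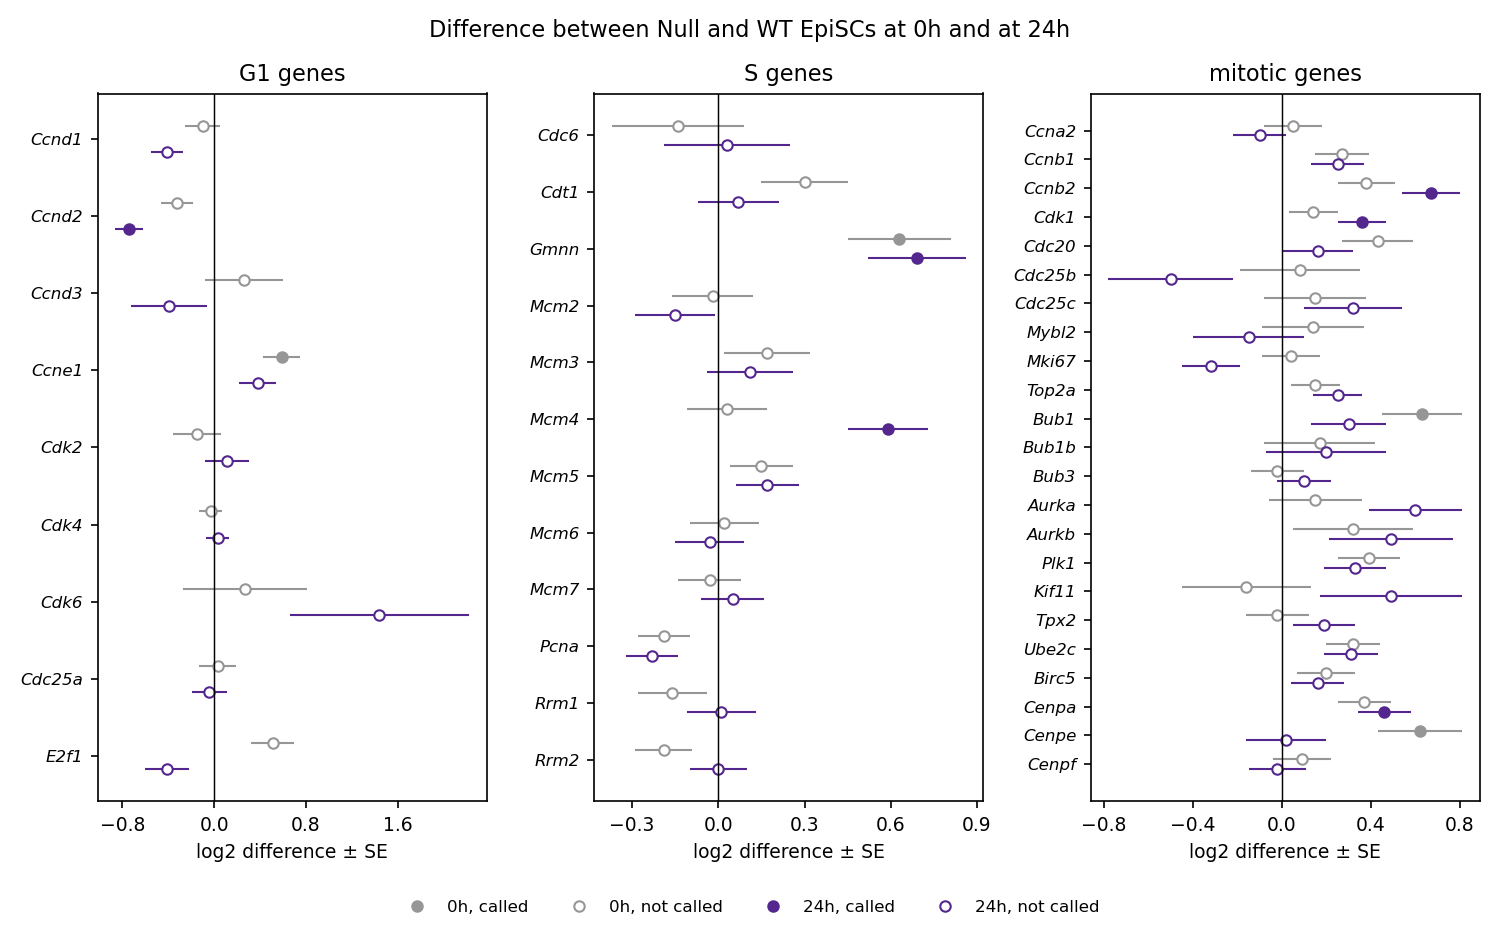
Log2 difference between Null and WT EpiSCs for each tested member, with its standard error, at 0h (grey) and 24h (purple); filled points have an edgeR adjusted p below 0.05 (n = 2 libraries per group). Most mitotic genes lie right of 0 at both times, and Ccnd2 lies to the left at 24h.

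Of the G1 genes, Ccne1, which activates Cdk2, measured 61 and 71.2 CPM in WT and 106 and 91.3 CPM in Null cells at 0h. The log2 difference was 0.59 ± 0.16 (adjusted p = 0.0205), and the call was lost without WT 0h library 1 (adjusted p = 0.197) or Null 0h library 1 (0.249). At 24h it was 0.38 ± 0.16 and did not pass. Ccnd2 was lower in Null cells at 24h, at 415 ± 1.84 against 689 ± 88.9 CPM (−0.74 ± 0.12, adjusted p = 0.000121), and this held in all 13 other settings. At 0h the 2 lines overlapped in Ccnd2, with a log2 difference of −0.32 ± 0.14 (adjusted p = 0.184).

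Of the S genes, Gmnn, which codes for geminin, the inhibitor of Cdt1, measured 50.3 and 55.2 CPM in WT and 72 and 93.1 CPM in Null cells at 0h. At 24h it measured 42.8 and 48.5 CPM in WT and 68.9 and 77.6 CPM in Null cells. All 4 Null libraries lay above all 4 WT libraries, with log2 differences of 0.63 ± 0.18 (adjusted p = 0.0259) and 0.69 ± 0.17 (adjusted p = 0.00968). The 0h call was lost without WT 0h library 1 (adjusted p = 0.176), WT 0h library 2 (0.086) or Null 0h library 2 (0.284), and the 24h call without WT 24h library 1 (0.145) or Null 24h library 2 (0.123). Mcm4, a helicase subunit, measured 102 and 107 CPM in WT and 161 and 151 CPM in Null cells at 24h (0.59 ± 0.14, adjusted p = 0.00465). Without WT 24h library 1 or Null 24h library 1 its adjusted p was 0.0613 and 0.0833. At 0h Mcm4 overlapped, at 123 and 128 against 115 and 145 CPM, and the other 5 helicase subunits were called at neither time.

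Mitotic genes tended to be higher in Null cells, with log2 differences above 0 for 20 of 23 at 0h (median 0.15) and 18 of 23 at 24h (median 0.25), beside medians of −0.01 and 0 over all tested genes. At 24h Ccnb2, a B-type cyclin, measured 117 and 147 CPM in WT and 208 and 205 CPM in Null cells (0.67 ± 0.13, adjusted p = 0.000857). Its call was lost only without WT 24h library 1 (0.48, adjusted p = 0.0639) among the left-out libraries. Cenpa, the centromeric histone, measured 195 and 194 CPM in WT and 283 and 252 CPM in Null cells (0.46 ± 0.12, adjusted p = 0.00933). Cdk1, the kinase that triggers mitosis, measured 324 and 391 against 452 and 461 CPM (0.36 ± 0.11, adjusted p = 0.0424). Null libraries lay above WT libraries in all 3 genes. Without WT 24h library 1 the adjusted p was 0.059 for Cenpa and 0.412 for Cdk1, and without Null 24h library 1 it was 0.195 and 0.171. Without Null 24h library 2 that of Cdk1 was 0.218.

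At 0h the checkpoint kinase Bub1 measured 51.9 and 56.4 CPM in WT and 89.1 and 77.7 CPM in Null cells (0.63 ± 0.18, adjusted p = 0.0218). Cenpe measured 47.1 and 42.7 against 77.1 and 58.7 CPM (0.62 ± 0.19, adjusted p = 0.0385). Both were higher in each Null library at 0h. At 24h neither was called. Bub1 then measured 56.5 ± 9.46 CPM in WT and 68.5 ± 4.33 CPM in Null cells (SD, n = 2). Cenpe was almost equal at 24h, at 52.2 ± 1.95 CPM in WT and 52.6 ± 3.44 CPM in Null cells. Without WT 0h library 1, WT 0h library 2 or Null 0h library 1, the adjusted p was 0.153, 0.0808 and 0.229 for Bub1 and 0.106, 0.219 and 0.466 for Cenpe. DESeq2 called none of the 4 members at 0h (adjusted p = 0.144 to 0.249), and at 24h neither Gmnn (0.109) nor Cdk1 (0.135).

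Other genes of the cell cycle were read from 3 further lists, of G1 control, replication and mitosis, with 28, 54 and 69 genes tested in EpiSCs. Of the G1 control genes, 1 rose and 3 fell in WT at 24h, and 2 rose and 3 fell in Null. That is 14.3% and 17.9% of the list, beside 16.8% and 18.6% of all tested genes. Cdkn1a, the inhibitor p21 of cyclin-dependent kinases, measured 275 and 244 CPM in WT at 0h and 1593 and 1418 CPM at 24h, a rise of 2.54 ± 0.10 (adjusted p = 7.14e-19). In Null cells it measured 245 and 238 CPM against 1409 and 1458 CPM (2.57 ± 0.11, adjusted p = 3.7e-19). The 24h levels of Cdkn1a were thus far above all 0h libraries and close between lines, and the calls held in all 13 other settings. Cks1b, which serves the complex that degrades the inhibitor p27, fell by 0.51 in each line (adjusted p = 0.000258 and 0.000242). E2f4, an E2F factor that acts mainly as a repressor, fell by 1.21 ± 0.16 in Null (adjusted p = 6.35e-07) and by 0.58 ± 0.15 in WT cells (adjusted p = 0.00571). The WT call of E2f4 was lost without WT 0h library 2 (adjusted p = 0.0934) or WT 24h library 2 (0.0941), and with DESeq2 (0.0689).

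Cdkn1c, the inhibitor p57, was higher in Null than in WT cells at both times. It measured 9.1 and 12 CPM in WT and 59.4 and 65.1 CPM in Null cells at 0h, and 5.92 and 10.8 against 83.8 and 97.6 CPM at 24h. The log2 differences were 2.55 ± 0.26 (adjusted p = 1.48e-08) and 3.53 ± 0.24 (adjusted p = 1.59e-12), which held in all 13 other settings. Cks1b was also higher in Null cells, by 0.36 and 0.37 (adjusted p = 0.0195 and 0.0172). Cdkn1c and Cks1b were the only calls of the list at either time. They make up 7.14% of its tested genes, beside 6.67% of all tested genes at 0h and 8.05% at 24h. Both Cks1b calls were lost in left-out fits, at 0h without any 1 of the 4 libraries (adjusted p = 0.0646 to 0.175), and at 24h without WT 24h library 1 (0.159), Null 24h library 1 (0.0812) or Null 24h library 2 (0.184).

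Of the 54 other replication genes, none rose at 24h by edgeR, while 7 fell in WT and 6 in Null cells, which is 13% and 11.1%, beside 8.63% and 9.44% of all tested genes that fell and 16.8% and 18.6% called either way. Gins2, a part of the active helicase, was among them in both lines (−0.53 ± 0.17 in WT, adjusted p = 0.0224; −0.71 ± 0.18 in Null, adjusted p = 0.00347), as was Dut, which keeps uracil out of DNA (−0.38 ± 0.12, adjusted p = 0.0248; −0.57 ± 0.12, adjusted p = 0.000519). Gins2 in WT lost the call without WT 0h library 1 (adjusted p = 0.0596), WT 0h library 2 (0.169) or WT 24h library 1 (0.259), and in Null without Null 0h library 1 (0.0684) or Null 24h library 2 (0.0725). Dut in WT lost it without any 1 of the 4 WT libraries (0.0613 to 0.171). DESeq2 called neither of them in WT (adjusted p = 0.251 for Gins2 and 0.124 for Dut). Rnaseh2a, a subunit of the nuclease that removes ribonucleotides from DNA, was higher in Null cells by 1.19 ± 0.14 at 0h and 1.10 ± 0.14 at 24h (adjusted p = 4.04e-07 and 6.58e-07), with 73.9 to 79.1 CPM in WT and 158 to 178 CPM in Null libraries. The 4 WT and 4 Null libraries of Rnaseh2a did not overlap. Of this list, 2 genes were called in Null against WT at 0h and 3 at 24h, all higher in Null. These are 3.7% and 5.56% of its tested genes, beside 6.67% and 8.05% of all tested genes.

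Of the 69 other mitotic genes, 1 rose and 6 fell in WT at 24h, and 1 rose and 9 fell in Null cells. That is 10.1% and 14.5% of the list, below the 16.8% and 18.6% of all tested genes. Mad2l1, the checkpoint protein Mad2, measured 343 and 372 CPM in WT at 0h and 164 and 159 CPM at 24h (−1.14 ± 0.12, adjusted p = 2.18e-09). Cenpm, a kinetochore subunit, fell by 0.81 ± 0.21 in WT (adjusted p = 0.00484) and by 1.12 ± 0.22 in Null cells (adjusted p = 0.000205). The WT call of Cenpm was lost without WT 24h library 1 (adjusted p = 0.146) and with DESeq2 (0.12). Fzr1, an activator of the anaphase-promoting complex in G1, fell by 0.75 ± 0.13 in Null cells (adjusted p = 3.28e-05). The median log2 difference of this list was −0.28 in WT and −0.21 in Null cells, and that of the other replication list −0.18 and −0.19. At 0h 1 other mitotic gene was higher in Null than in WT cells and 1 lower, 2.9% of the list beside 6.67% of all genes. Cenpw was higher (0.47 ± 0.12, edgeR adjusted p = 0.0119) and Ncaph lower (−0.49 ± 0.15, edgeR adjusted p = 0.0395). Both calls were lost in some left-out fits, and that of Ncaph also with DESeq2 (adjusted p = 0.221). At 24h 4 other mitotic genes were higher in Null than in WT cells and none lower, 5.8% of the list beside 8.05% of all genes. Among them were Gtse1 (0.96 ± 0.21, adjusted p = 0.0024) and Cks2 (0.49 ± 0.11, adjusted p = 0.00385). Gtse1 lost the call without Null 24h library 1 (adjusted p = 0.185) and with DESeq2 (0.0541), and Cks2 without WT 24h library 1 (0.0598) or Null 24h library 1 (0.0598).

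In E8.0 tailbuds the cell cycle genes differed little between genotypes. Against WT, Triple tailbuds had lower Rrm2 and Mybl2, 2 of 40 tested members, beside 2.9% of all tested genes (1.62% higher, 1.28% lower). Cdx1-4 tailbuds had no member called against WT by edgeR (0.133% of all genes were called) or DESeq2, and 3 members with an unadjusted p below 0.05. Triple against Cdx1-4 gave none by either tool (2.02% of all genes) and 1 member with an unadjusted p below 0.05, the phosphatase gene Cdc25c. The share of all genes below that unadjusted threshold was not counted. The libraries of the 2 groups did not overlap for 5 of 40 members in each of these 3 comparisons, beside 16.4%, 13.1% and 15.7% of all genes. The 3 comparisons share libraries, so their values are given side by side. Markers of the tailbud (12 genes) summed to 1263 to 1278 CPM in WT, 883 to 1044 in Cdx1-4 and 411 to 510 in Triple, where Cdx4 and Msgn1 were at 0. Markers of formed somites and neural tissue (8 of 10 listed genes in the table) summed to 52.5 to 65.9, 81.5 to 114 and 385 to 435 CPM, with Neurog2 at 0 in WT and Triple and Uncx at 0 in Cdx1-4. Extraembryonic endoderm markers (10 genes, none at 0 in a whole group) summed to 591 to 997, 412 to 1071 and 912 to 1111 CPM. Blood and endothelium markers (11 of 12 in the table) summed to 34.3 to 60.6, 23 to 369 and 32.7 to 93.6 CPM, with Emcn at 0 in WT and Triple. Decidua markers (8 of 9 in the table) summed to 89.7 to 105, 89.4 to 95.4 and 109 to 147 CPM. Of these, Prl3c1 was at 0 in WT and Triple, Hoxa11 in WT, and Dcpp1 in Cdx1-4 and Triple. Of the 2 tested decidua markers, Prl8a2 was called, higher in Triple than in WT (4.94 ± 0.93, edgeR adjusted p = 0.000356). The part of all these markers in the differences below was not tested.

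Rrm2 measured 1044, 1074 and 1127 CPM in WT, 948, 888 and 944 CPM in Cdx1-4 and 855, 822 and 819 CPM in Triple tailbuds. The 3 groups did not overlap and lay in that order, WT highest. Triple against WT gave −0.38 ± 0.11 (adjusted p = 0.0283), Cdx1-4 against WT −0.22 ± 0.10 (adjusted p = 0.604). Mybl2 measured 73.8, 101 and 92.8 CPM in WT, 40.1, 45.8 and 59.6 CPM in Cdx1-4 and 53.7, 48.6 and 57.2 CPM in Triple tailbuds. Both mutant groups lay below all WT libraries and overlapped each other. Triple against WT gave −0.77 ± 0.22 (adjusted p = 0.043), and Cdx1-4 against WT gave −0.88 ± 0.21 without a call (adjusted p = 0.0787). Neither Triple call is firm: each was lost without any 1 of 5 of the 6 libraries compared, with adjusted p = 0.0624 to 0.151 for Rrm2 and 0.0773 to 0.214 for Mybl2. Leaving out WT library blue-1 alone kept both. DESeq2 did not call Mybl2 (adjusted p = 0.449). Among the blue libraries alone, which leaves out the green library of each group, no member was called.

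**Figure D5:**
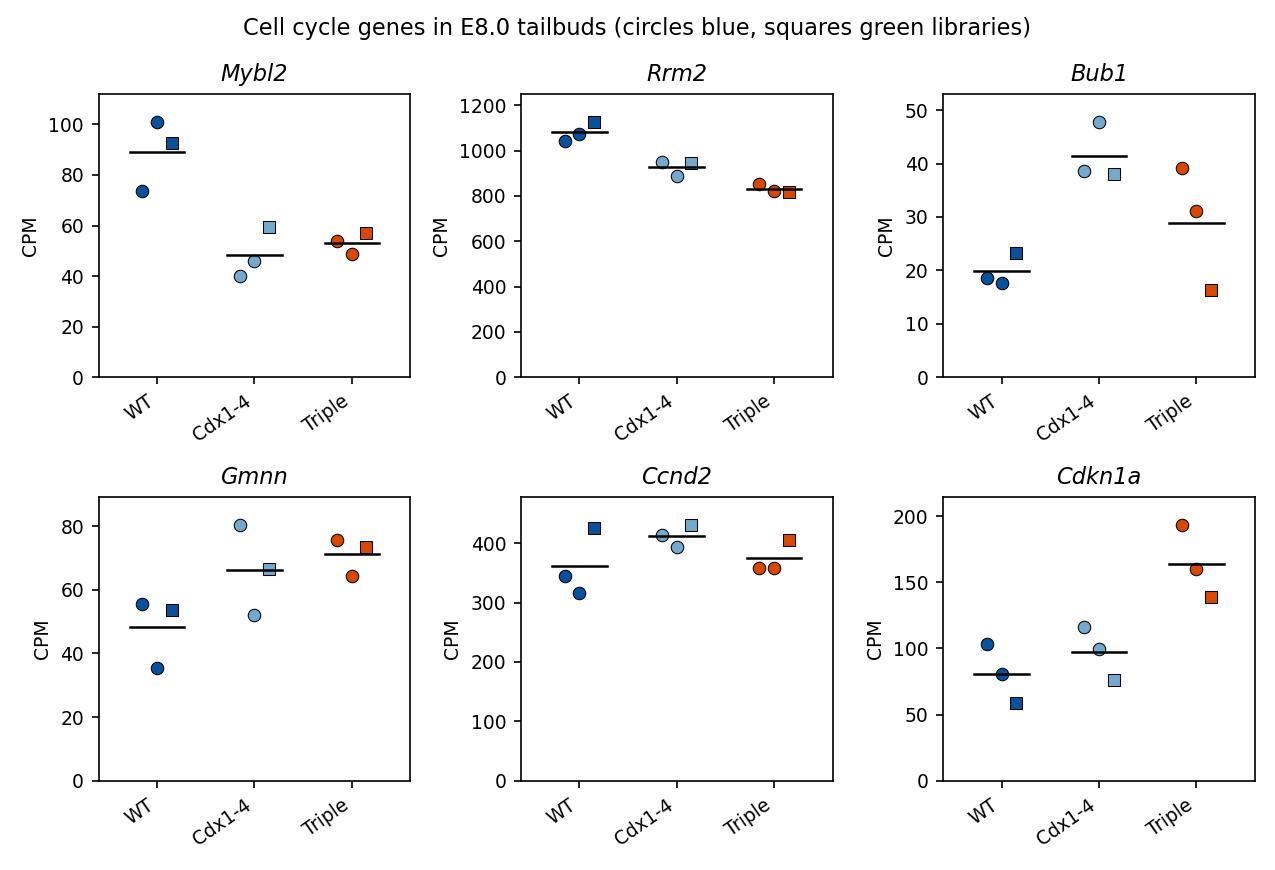
CPM of 5 members and of Cdkn1a in the 9 tailbud libraries, 1 point per library with a line at each group mean (n = 3); circles and squares are libraries whose column names say blue and green. Mybl2 is lower in Cdx1-4 and Triple than in WT, Cdkn1a is highest in Triple, and the groups overlap in Ccnd2.

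Bub1 had 7, 7 and 19 counts in WT, 28, 23 and 28 in Cdx1-4 and 16, 18 and 6 in Triple tailbuds, or 19.8 ± 2.99, 41.5 ± 5.5 and 28.9 ± 11.5 CPM (SD, n = 3). Cdx1-4 libraries all lay above WT, with a log2 difference of 0.98 ± 0.31 that did not pass (adjusted p = 0.307). Gmnn measured 35.4 to 55.4 CPM in WT, 52 to 80.2 in Cdx1-4 and 64.2 to 75.7 in Triple tailbuds, and the Triple difference of 0.51 ± 0.24 did not pass (adjusted p = 0.361). Cdc25c had 4, 18 and 10 counts in Triple and 27, 25 and 22 in Cdx1-4 tailbuds (−0.70 ± 0.33, adjusted p = 0.412). Of the G1 members, Cdk2 had the smallest p in Triple against WT (0.38, edgeR adjusted p = 0.717) and against Cdx1-4 (0.52, edgeR adjusted p = 0.566). In Cdx1-4 against WT it was E2f1 (−0.34, edgeR adjusted p = 0.736). Of the S members in Triple against Cdx1-4 it was Mcm2 (−0.24, edgeR adjusted p = 0.555). Ccnd2, the gene that changed most clearly in EpiSCs, measured 362 ± 57.1 CPM in WT, 412 ± 18.4 in Cdx1-4 and 374 ± 26.9 in Triple tailbuds. These levels overlapped, and Ccnd2 made up 42.7% ± 5.25, 42.6% ± 1.23 and 42.8% ± 6.17 of D-type cyclin counts. Of the members not tested in tailbuds, Ccne2 had at most 1 count in any library, Cdc25b at most 11, Kif11 at most 17, Cdk6 at most 12 and Ccnd3 at most 18. The fit without a low-count filter, which tested all 45 members, called none of these 5 in any tailbud comparison.

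Medians over the tested tailbud members lay near 0 in each phase. For Triple against WT they were 0.06 for G1, −0.07 for S and −0.05 for mitotic genes, and for Cdx1-4 against WT 0.01, 0 and 0.03. Standard errors of single members ranged from 0.10 to 0.40 in the 3 tailbud comparisons. Of the other lists, Cdkn1a was higher in Triple tailbuds. It measured 103, 80.8 and 58.6 CPM in WT, 116, 99.8 and 75.9 in Cdx1-4 and 193, 160 and 139 in Triple tailbuds, so that all Triple libraries lay above all others. The difference was 1.10 ± 0.21 against WT (adjusted p = 0.000349), held in all 15 other settings, and 0.76 ± 0.19 against Cdx1-4 (adjusted p = 0.0171). The latter call was lost without Cdx1-4 library green-1 (adjusted p = 0.211) or Triple library blue-1 (0.196), in the blue libraries alone (0.167) and with DESeq2 (0.192). Pttg1, which codes for the mitotic protein securin, was higher in Triple than in WT by 0.56 ± 0.15 (adjusted p = 0.0176). Without WT blue-2, WT green-1, Triple blue-1 or Triple green-1 the adjusted p of Pttg1 was 0.0679, 0.231, 0.188 and 0.0671, and it was 0.422 in the blue libraries alone and 0.126 with DESeq2. No other gene of the G1 control, replication and mitotic lists, with 16, 47 and 55 genes tested, was called in any tailbud comparison.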

How the data were processed

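Libraries were made by CEL-seq, a 3′ tag method, with an input of 10 ng of RNA per the labels' protocols. Raw counts per gene and library were deposited, mapped to mm10 per the submitters' processing notes; the counter and its use of strand are not given in the sources used here. The 8 spike-in entries of each table, with 2 counts in EpiSCs and 1 in tailbuds, were left out. Each table was fitted alone in edgeR 4.0.16 (R 4.3.3) with TMM scaling, filterByExpr, 1 mean per group and the robust quasi-likelihood test. This left 9703 EpiSC and 6003 tailbud genes, with 4 and 6 residual degrees of freedom and common biological coefficients of variation of 0.081 and 0.0995. A gene was called at a Benjamini-Hochberg adjusted p below 0.05 over all tested genes, and standard errors come from the F statistic. The fit was tested on simulated data.

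Members and lists were chosen with earlier results of these data known. Any of the 45 members could be named. Values are given for members called in any comparison, the smallest-p member of each phase in each comparison, and some others, such as Ccnd1, Mcm5 and Pcna. Of each further list, at most 3 called genes per comparison are named, by p. Alternatives were DESeq2 1.42.0, RLE scaling, no low-count filter, each library left out, only the groups compared, a replicate block and, in tailbuds, the blue libraries alone. Of the 45 members, 18 overlap another annotated gene, among them Aurka (Cstf1), Cdc20 (Elovl1) and E2f1 (Necab3), and pseudogenes are named for Ccnd3, Pcna, Ccnb1 and Ccnb2, so their counts may be shared. Tailbud columns carry a colour and number that do not match the label numbers, so these libraries were mapped to a group alone, and 1 column spelled Cd4_1-4 was read as Cdx1-4. The deposited binding and accessibility regions are in mm9 and were not used here.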

Additional observations from a re-analysis of the deposited data

Results flagged for a closer look

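Mad2l1, which codes for the spindle checkpoint protein Mad2, responded differently in the 2 EpiSC lines at 24h by the interaction test. It measured 343 and 372 CPM in WT at 0h and 164 and 159 CPM at 24h, against 299 and 296 CPM and 212 and 245 CPM in Null cells. The fall was −1.14 ± 0.12 in WT and −0.39 ± 0.12 in Null cells. The difference between these falls, 0.75 ± 0.16, had an edgeR adjusted p of 0.0217. Mad2l1 was the only interaction call among the 69 tested other mitotic genes (1.45%), beside 0.567% of all tested genes. Without WT 0h library 2, Null 0h library 1, Null 0h library 2 or Null 24h library 2, the adjusted p was 0.11, 0.104, 0.065 and 0.179. DESeq2 gave 0.74 with an adjusted p of 0.032.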

How the results depend on the processing

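No called difference of a member, or of a gene named from the further lists, changed direction. The direction of the other called genes was not compared between settings. Some phase medians close to 0 changed sign. The G1 median in Null against WT ranged over −0.04 to 0.15 at 0h and −0.23 to 0.08 at 24h. The mitotic median in Triple against WT ranged over −0.07 to 0.02, and the G1 median in Triple against Cdx1-4 over −0.07 to 0.06. The S medians in Null against WT at 24h (−0.03 to 0.09) and in the interaction (−0.02 to 0.05), and the mitotic median of the interaction (−0.04 to 0.05), also changed sign. With DESeq2 fewer members were called: 2 and 3 in the WT and Null 24h comparisons, 0 and 4 in Null against WT at 0h and 24h, and 1 in Triple against WT. Genes called by DESeq2 were 784, 953, 250 and 264 in the 4 EpiSC comparisons (edgeR 1632, 1807, 647 and 781), and 24 for the interaction (55). In tailbuds it called 91 genes in Triple against WT (174), 4 in Cdx1-4 against WT (8) and 55 between the mutants (121). Without a low-count filter the interaction gave 93 genes and Triple against WT 1 member.

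The EpiSC labels share the numbers 1 and 2, but nothing says that they pair the libraries, and the replicate differences of the 6 pairs of groups correlated by only 0.01 to 0.09. With a replicate block on that number, 11 members were called in WT at 24h, 7 and 11 in Null against WT at 0h and 24h, and 123 genes for the interaction. With a replicate block on the tailbud column colour, 1 member was called in Triple against WT. The blue libraries alone gave 0 members and 74 genes there, and 38 genes for Triple against Cdx1-4.

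Leaving out 1 library at a time gave 2 to 6 and 3 to 9 members in the WT and Null 24h comparisons, 0 to 6 and 1 to 8 in Null against WT at 0h and 24h, 0 to 2 in Triple against WT and 0 to 1 in Cdx1-4 against WT. Genes called ranged over 1034 to 1693, 1121 to 1975, 326 to 780 and 357 to 813 in those EpiSC comparisons, and 18 to 82 for the interaction. In tailbuds they ranged over 125 to 193 (Triple against WT), 6 to 11 (Cdx1-4 against WT) and 70 to 132 (Triple against Cdx1-4). No member was called in 0h Null against WT cells without WT 0h library 1, and 1 at 24h without WT 24h library 1. Mybl2 passed in Cdx1-4 against WT without WT blue-1 (adjusted p = 0.0462) or Cdx1-4 green-1 (0.0391). The median of the mitotic genes stayed below 0 in both 24h comparisons (−0.25 to −0.18 in WT, −0.30 to −0.21 in Null) and above 0 in Null against WT (0.14 to 0.25 and 0.13 to 0.29). The cause of these shifts was not tested. With 2 libraries per EpiSC group and at most 854852 counts per tailbud library, precision is limited for genes of few counts.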
